A study of Mus musculus with 5480 samples.

Results

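Oxygen sensing in the mesenchyme of the newborn mouse lung was followed through 10 genes: Hif1a, Epas1 and Hif3a, which encode the oxygen-regulated subunits of the hypoxia-inducible factors (HIFs); Egln1 and Egln3, which encode HIF prolyl hydroxylases; and Ankrd37, Adm, Bnip3, Slc2a1 and Pdk1, which are known HIF targets. The genes were taken by name, with earlier results of these data known, and all 10 were present among the 18072 genes of the count table. Each was followed across the 16 cell subtypes named by the submitters' labels, across birth, and between normal air and hyperoxia at P7.

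The data are single-cell RNA-seq of 5480 cells from the distal lung, made on plates with a Tn5 transposase, of which 5409 carry the label of a mesenchymal sort. They come from 10 mice. Normal air was sampled at E18.5, P1, P7 and P21, hyperoxia was sampled at P7, and each of these 5 groups holds 1 male mouse and 1 female mouse. The labels name no strain, genotype or oxygen level, so these are not given here, and every group shares the same labelled tissue. The mouse was the replicate, which leaves 2 per group, and each mouse gave 311 to 633 cells with a median of 521125 to 1084627 reads per cell. Almost all cells of the males in normal air were sequenced in a single run, as were those of the E18.5 and P1 females, so the comparison across birth lies within a run for each sex. The P7 and P21 females were each sequenced almost wholly in another run, so among females age and run cannot be told apart after P1. Each hyperoxic mouse was sequenced almost wholly in a run of its own, so hyperoxia and sequencing run cannot be told apart.

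Under normal oxygen, the hydroxylases encoded by Egln1 and Egln3 use oxygen to mark HIF subunits, and the marked subunits are bound by the VHL protein and degraded. When oxygen is scarce the subunits escape, pair with ARNT and switch on genes that carry the letters ACGTG or GCGTG near their starts. The targets serve glucose uptake (Slc2a1), diversion of pyruvate from mitochondria (Pdk1), removal of mitochondria (Bnip3) and widening of vessels (Adm, which encodes adrenomedullin), and Egln1, Egln3 and Hif3a are themselves known targets. Because HIF subunits are controlled mainly as proteins, the mRNA values given here do not measure HIF activity. The lung passes at birth from a fluid-filled, low-oxygen state to air.

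The promoters of the 5 genes on which the comparisons below turn are shown so that the HIF core letters can be seen in place. Each sequence is the 250 bases before the start of the gene, 5′ to 3′ on the gene's strand, from RefSeq on the build GRCm38.p6. Capitals mark every match to ACGTG or GCGTG on either strand, which reads as CACGT or CACGC on the other. Hif3a and Ankrd37 come first, followed by Bnip3, Slc2a1 and Adm.
Hif3a (chr7:17062428-17062677, minus strand): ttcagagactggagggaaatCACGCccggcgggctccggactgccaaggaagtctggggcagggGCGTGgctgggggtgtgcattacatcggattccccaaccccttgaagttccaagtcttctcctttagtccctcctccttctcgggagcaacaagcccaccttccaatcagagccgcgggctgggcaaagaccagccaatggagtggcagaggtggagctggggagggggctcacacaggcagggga
Ankrd37 (chr8:45999851-46000100, minus strand): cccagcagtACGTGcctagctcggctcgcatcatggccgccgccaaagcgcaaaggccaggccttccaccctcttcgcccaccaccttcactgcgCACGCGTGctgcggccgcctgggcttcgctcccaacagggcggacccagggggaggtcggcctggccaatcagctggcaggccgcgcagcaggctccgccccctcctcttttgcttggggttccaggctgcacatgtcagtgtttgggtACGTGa
Bnip3 (chr7:138909507-138909756, minus strand): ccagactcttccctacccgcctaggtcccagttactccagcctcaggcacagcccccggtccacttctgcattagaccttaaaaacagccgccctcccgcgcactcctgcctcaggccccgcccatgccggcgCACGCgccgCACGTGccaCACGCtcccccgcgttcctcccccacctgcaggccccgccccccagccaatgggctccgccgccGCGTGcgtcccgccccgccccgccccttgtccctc
Slc2a1 (chr4:119108495-119108744, plus strand): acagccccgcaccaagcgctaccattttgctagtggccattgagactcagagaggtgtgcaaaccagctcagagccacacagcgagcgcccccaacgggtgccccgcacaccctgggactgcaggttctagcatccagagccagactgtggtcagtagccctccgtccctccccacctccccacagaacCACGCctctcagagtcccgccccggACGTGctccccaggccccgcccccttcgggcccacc
Adm (chr7:110627407-110627656, plus strand): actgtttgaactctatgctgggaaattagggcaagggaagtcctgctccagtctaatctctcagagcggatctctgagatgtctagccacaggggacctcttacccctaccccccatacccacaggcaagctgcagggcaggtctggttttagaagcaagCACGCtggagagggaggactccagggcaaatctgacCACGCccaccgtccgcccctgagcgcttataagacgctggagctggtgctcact

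Bnip3 held 5 matches and Ankrd37 held 4, and in each of these genes 2 of the matches overlap in a single palindrome. Hif3a, Slc2a1 and Adm held 2 each. The matches nearest to a start began 6 bases before that of Ankrd37, 35 bases before that of Bnip3 and 36 bases before that of Slc2a1. Windows were available for 9 of the 10 genes, with 2 for Pdk1, and no window was available for Epas1. At least 1 match was present in 9 of these 10 windows and at least 2 in 7 of them, against 38.6% and 16.7% of all 32851 promoter windows of the same length. A match describes the letters and is not a measured binding site.

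Levels were compared between genes as read counts scaled to a common library size and given in CPM, and per kilobase of merged exons, over all cells of each mouse. Adm had the highest median of the 10 mice at 29.15 CPM per kilobase (range 20.2 to 149), followed by Bnip3 at 24.6 (range 16.1 to 90.7) and Hif1a at 14.1 (range 11.9 to 21.1). Hif1a had the narrowest range of these and was also the most widely detected gene, with at least 1 read in 55.6% of all cells. The hydroxylase genes had medians of 9.53 (Egln3) and 6.33 (Egln1) CPM per kilobase. Epas1 had a median of 4.75 with a range of 1.82 to 37.4, and Hif3a a median of 0.699 with a range of 0.13 to 17.4, so these HIF genes varied between mice far more than Hif1a. Ankrd37 ranged from 0.0574 to 29.7 CPM per kilobase and was detected in 5.55% of cells.

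**Figure D1:**
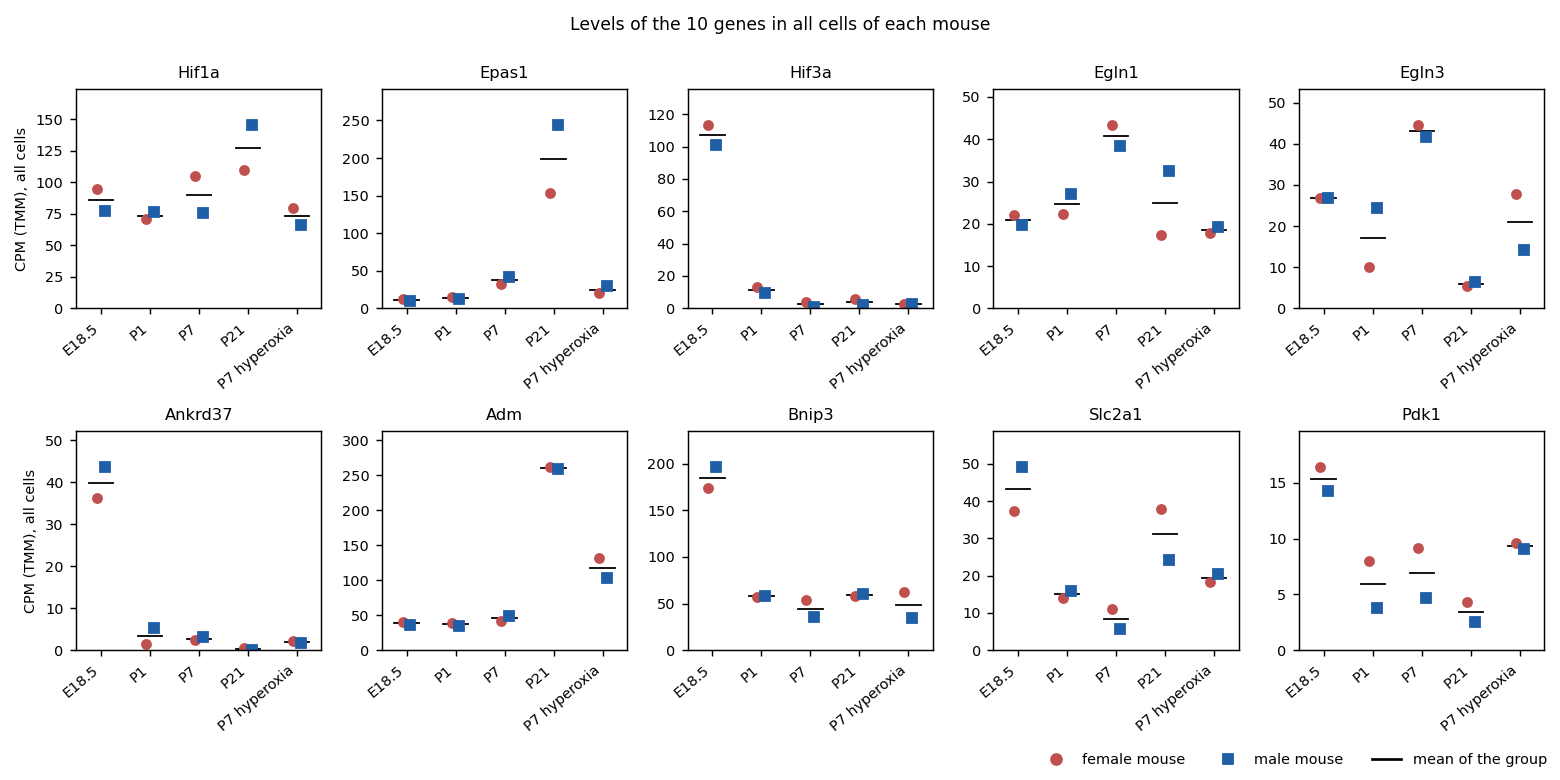
Level of each of the 10 genes (CPM after TMM scaling, linear axis from 0) in all cells of each mouse, by group. Circles are female and squares male mice, and the line is the mean of the 2 mice. Hif3a, Ankrd37 and Bnip3 were high in the E18.5 mice, Adm was high at P21 and in between after hyperoxia, and Epas1 was high at P21.

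The labelled subtypes differed in which HIF factor they carried. Epas1 was highest in pericytes, the contractile cells that wrap capillaries, and in vascular smooth muscle. In E18.5 pericytes it stood at 337 and 268 CPM (female, then male mouse), in P1 pericytes at 316 and 248, in P7 pericytes at 632 and 447, and in P21 pericytes at 792 and 691. At P21 vascular smooth muscle had 454 and 638 CPM of Epas1, overlapping with pericytes at P7, and alveolar fibroblasts had 58.9 and 60.7. Vascular smooth muscle at P1 spanned 14.5 to 214 CPM between its 2 mice, so its place in the order was not fixed there. Epas1 is widely known as an endothelial gene. The summed level of 6 endothelial markers in pericytes was 0.154 to 37.0 CPM over the 8 mice with enough pericytes, while 6 pericyte markers summed to 5020 to 7640 CPM in the same cells. Of the endothelial markers, 2 to 5 were at 0 in each mouse except the P21 male, where none was, and Cdh5 was at 0 in 6 of the 8. The highest subtype means of Hif1a were 166 ± 20.3 CPM in vascular smooth muscle at P1 and 164 ± 8.34 in early airway smooth muscle at P7 (SD, n = 2). These 2 means did not differ beyond their spread. After TMM scaling, airway smooth muscle at P7 had 145 and 162 CPM of Hif1a. Vascular smooth muscle had 91.9 and 126, alveolar fibroblasts 118 and 99.0, adventitial fibroblasts 85.0 and 70.6, myofibroblasts 73.2 and 43.4, and pericytes 41.6 and 83.0.

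Egln3 had its 7 highest means in early airway smooth muscle, in myofibroblasts, proliferating ones included, and in their precursor. It reached 202 ± 61.9 CPM in early airway smooth muscle under hyperoxia, 197 ± 112 at P1 and 161 ± 12.4 at P7 (SD, n = 2), and these 3 means overlapped. The myofibroblast and smooth muscle precursor of E18.5 had 96.1 ± 16.5 CPM. E18.5 pericytes came next after these subtypes, with 42.0 ± 10.2 CPM, overlapping with airway smooth muscle at P21 (36.7 ± 6.86) and myofibroblasts under hyperoxia (36.2 ± 11.0). In the fibroblast lineage (fibroblast precursors, alveolar and adventitial fibroblasts) Egln3 was 8.68 and 9.09 CPM at E18.5 and between 0 and 1.28 CPM in every mouse after birth. Male hyperoxic fibroblasts, a subtype kept out of that lineage, had 28.2 CPM in the 1 mouse with at least 10 such cells. Egln1, the main hydroxylase in most tissues, had 49.1 ± 2.91 CPM in myofibroblasts at P7 and 66.6 ± 6.53 in proliferating myofibroblasts at P7. Unlike Egln3, it was present in both lineages at P7 in normal air, with TMM-scaled means of 30.4 CPM (fibroblast) and 47.6 (contractile). It was not even across classes: P7 pericytes had a mean of 0.53 CPM, and P7 vascular smooth muscle 22.3 and 137 in its 2 mice.

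Hif3a and Ankrd37 were high at E18.5 across subtypes. Hif3a encodes an alpha subunit whose splice forms can inhibit the other HIFs. It was present in every subtype measured at E18.5, with means from 80.9 ± 24.3 CPM in early alveolar fibroblasts to 149 ± 56.4 in pericytes (SD, n = 2) among its 5 highest, all of them E18.5 groups. Ankrd37, an ankyrin-repeat protein gene with a poorly known function, also had all of its 5 highest means at E18.5, from 23.0 ± 10.2 CPM in the myofibroblast and smooth muscle precursor to 54.2 ± 37.4 in pericytes. Adm had its highest means in alveolar fibroblasts at P21 (481 ± 43.4 CPM) and adventitial fibroblasts at P21 (222 ± 5.87), which did not overlap.

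**Figure D2:**
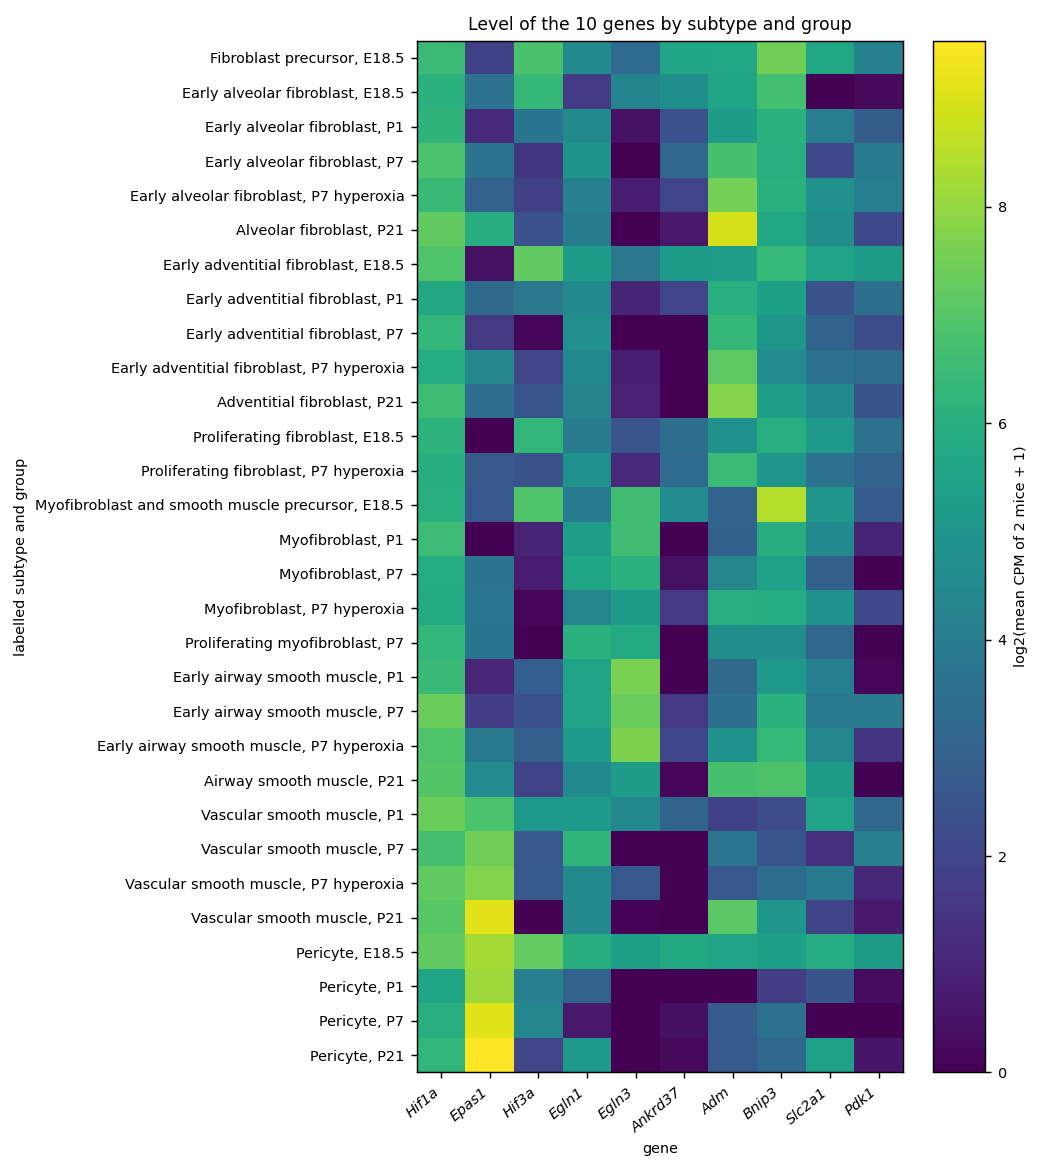
Mean level of the 10 genes in each labelled subtype and group with at least 10 cells in both mice, as log2(mean CPM + 1) on a colour scale from 0. Epas1 was brightest in pericytes and vascular smooth muscle, Egln3 in the contractile subtypes, Hif3a and Ankrd37 in the E18.5 groups, and Adm in fibroblasts at P21.

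Across birth, 2 of the 10 genes fell, and Ankrd37, Slc2a1 and Pdk1 had lower values without passing the test. For each mouse the counts of its cells were added up, and the sums entered edgeR's quasi-likelihood test with sex as a term and Benjamini-Hochberg adjustment over all genes tested, and a gene was called where the adjusted p was under 0.05. Levels beside a test are in CPM after TMM scaling, a correction for library make-up. Nothing says that the mice of a group are from separate litters, so p-values measure the spread between these mice. In all cells Hif3a and Bnip3 fell and no member rose, while 53 of 17283 genes (0.307%) fell and 160 (0.926%) rose. The members were chosen with earlier results of these data known, so the contrasts drawn here between them and all genes are descriptions. The members' median log2 change was -1.06, against -0.01 for all genes tested. In 8 of the 10 members the P1 mouse of each sex was below its E18.5 counterpart, as it was for 31.7% of all genes tested. In 7 members the groups did not overlap in that direction, as in 25.2% of all genes tested.

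Hif3a stood at 113 CPM in the female and 101 in the male at E18.5, and at 13.2 and 9.23 CPM at P1. The groups were far apart, with a log2 change of -3.30 ± 0.56 (SE) and an adjusted p of 0.0224 in edgeR. The fraction of cells in which it was seen also moved: after thinning each cell to 100000 reads, 55.8% and 50.7% of cells at E18.5 had a Hif3a read against 9.47% and 8.54% at P1 (62.7% and 57.2% against 11.2% and 10.9% without thinning). At P7 it was 3.98 and 0.84 CPM and at P21 5.71 and 2.19, so the level stayed low after birth.

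Bnip3, whose product marks mitochondria for removal, was 174 and 196 CPM at E18.5 and 57.0 and 58.65 CPM at P1. Its log2 change was -1.68 ± 0.31 (SE), with an adjusted p of 0.0299 in edgeR. Leaving out any 1 of the 4 mice compared ended the calls of both Hif3a and Bnip3, and leaving out either P7 mouse in normal air also ended that of Bnip3. Over the refits that each left out 1 of the 10 mice, the adjusted p ranged from 0.0123 to 0.218 for Hif3a and from 0.0154 to 0.311 for Bnip3.

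Ankrd37 had the largest estimated change but did not pass. It was 36.3 and 43.6 CPM in the E18.5 mice and 1.53 and 5.41 in the P1 mice, for a log2 change of -3.54 ± 0.83 (SE) and an adjusted p of 0.0839. After thinning, 16.2% and 17.4% of cells had an Ankrd37 read at E18.5 against 1.16% and 1.52% at P1. Slc2a1, the basal glucose transporter gene, was 37.4 and 49.1 CPM before and 14.0 and 16.0 after birth (adjusted p = 0.126). Pdk1, whose kinase keeps pyruvate out of mitochondria, was 16.4 and 14.3 CPM before and 8.01 and 3.81 after birth (adjusted p = 0.282). The groups of these 3 genes did not overlap, yet at 2 mice per group the test did not call them. DESeq2 called Ankrd37, Slc2a1 and Pdk1 lower besides Hif3a and Bnip3, while it called 1167 genes in all (6.75%) against 213 in edgeR.

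The remaining members differed less across birth. Hif1a was 94.6 and 77.3 CPM before and 70.7 and 76.3 after birth, which is -0.22 ± 0.27 in log2 units (SE, adjusted p = 0.848). Epas1 was 12.4 and 9.70 CPM before and 15.4 and 12.4 after birth, and Adm 40.2 and 36.6 before and 39.2 and 34.4 after. The hydroxylase genes gave 22.1 and 19.8 against 22.3 and 27.1 CPM for Egln1, and 26.8 and 26.7 against 10.0 and 24.3 CPM for Egln3. Genes detected per cell were also lower after birth, with a median of 3734 and 3848 at E18.5 and 2962 and 3097.5 at P1, and the part of this in the results was not tested.

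**Figure D3:**
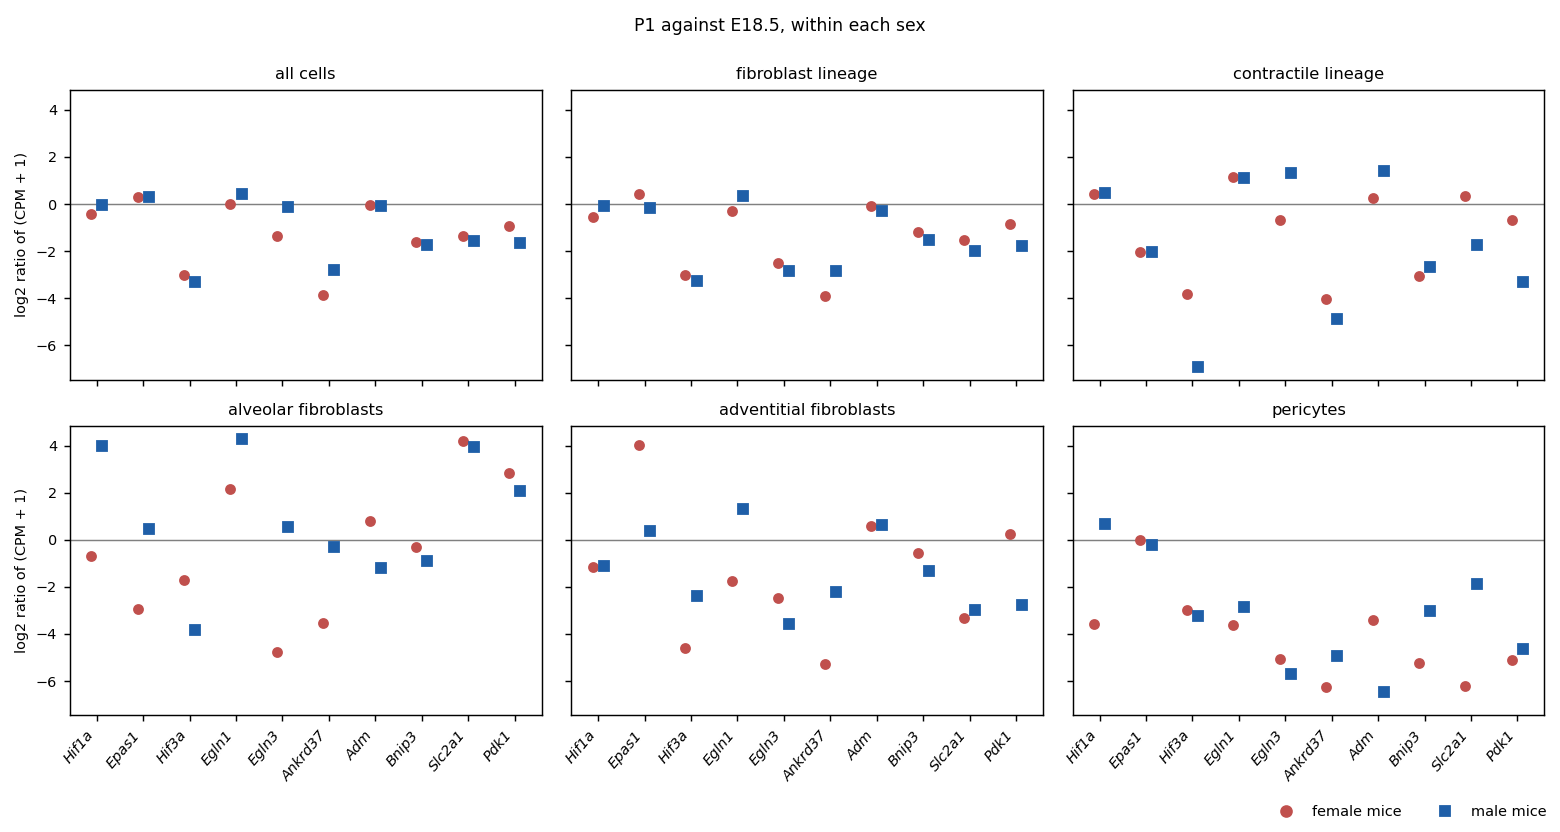
Log2 ratio of (CPM + 1) at P1 against E18.5 for each gene within each sex (circles female, squares male), in all cells and in 5 cell classes. A value below 0 is lower after birth. In all cells Hif3a gave -3.00 and -3.31, and all genes but Epas1 and Egln1 lay below 0 in both sexes.

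The change was then followed inside cell classes. E18.5 cells are mostly labelled as precursors, so within a lineage the comparison sets E18.5 precursors against the P1 subtypes of the same branch. In the fibroblast lineage edgeR called 153 of 16748 genes (0.914%) and no member, with 5 members at an unadjusted p under 0.05 (9.86% of all genes) and 4 called by DESeq2 (5.33% of all genes). Slc2a1 came nearest, with 37.9 and 56.3 CPM before against 12.5 and 13.4 after birth, or -1.86 ± 0.41 in log2 units (SE, adjusted p = 0.0853). Bnip3 was 142 and 181 CPM against 61.2 and 63.1 (adjusted p = 0.121). The groups of 8 members did not overlap, each with the lower values after birth, as did those of 24.2% of all genes tested.

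In the contractile lineage (the myofibroblast and smooth muscle precursor, myofibroblasts and airway smooth muscle) Bnip3 also fell. It was 365 and 309 CPM in the E18.5 mice and 43.2 and 47.8 CPM in the P1 mice, a log2 change of -2.88 ± 0.51 (SE) with an adjusted p of 0.0378 in edgeR. It was the single member called there, beside 49 of 14945 genes (0.328%) that fell. The share of contractile cells with a Bnip3 read after thinning was 78.2% and 74.6% before birth and 25.3% and 35.7% after. Bnip3 lost the call in 8 of the 10 refits that left out 1 mouse, with adjusted p from 0.00391 to 0.31. The difference between the lineages was tested with an interaction term and mouse as a block: it called 37 of 16970 genes (0.218%) and no member. For Bnip3 the contractile change was 1.57 lower on the log2 scale than that of the fibroblast lineage (-1.57 ± 0.53 SE, adjusted p = 0.397).

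Ankrd37 in contractile cells went from 15.2 and 28.4 CPM at E18.5 to no read at P1. With 5178 reads before birth and 0 after, the level was at least 943-fold lower, taking 3 reads over the group as the limit for a count of 0. Hif3a there was 106 and 119 CPM against 6.53 and 0 CPM (adjusted p = 0.319). Egln1 leaned the other way, with 16.7 and 14.0 CPM before and 38.2 and 31.4 after birth (adjusted p = 0.526). Reads were counted without molecular identifiers, so copies of 1 molecule are not independent, and such limits cover counting error only.

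Pericytes held far fewer cells, 28 at E18.5 and 43 at P1. EdgeR called 5 of 11894 genes (0.042%) and no member, with 3 members at an unadjusted p under 0.05 (5.4% of all genes) and 5 called by DESeq2 (5.61% of all genes). Egln3, Ankrd37 and Adm had no read in the P1 pericytes. By pooled reads, with counting error alone, the limits are 396-fold, 550-fold and 406-fold lower than at E18.5. They leave out the spread between cells, so they do not give the least size of the change. These reads came from few cells: Adm was seen in 1 pericyte of each E18.5 mouse. Hif3a was 103 and 199 CPM against 12.2 and 20.5. Epas1, which was high in these cells and in vascular smooth muscle, had 318 and 283 CPM before and 316 and 243 after birth. Its log2 change was -0.12 ± 0.49 (SE).

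Adventitial fibroblasts, the cells around airways and vessels, had 26 of 15289 genes (0.17%) called by edgeR and no member, with Hif1a, Hif3a and Slc2a1 at an unadjusted p under 0.05 (9.23% of all genes) and 3 members called by DESeq2 (5.09% of all genes). Hif1a was 119 and 109 CPM at E18.5 and 52.2 and 49.1 at P1 (adjusted p = 0.423). Slc2a1 was 18.5 and 67.2 CPM against 0.92 and 7.68. Hif3a was 189 and 97.0 CPM against 6.78 and 17.8. The groups of all 3 genes were apart with the lower values at P1, as were those of 15.6% of all genes tested.

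Early alveolar fibroblasts were rare before birth, with 14 and 24 cells at E18.5. Those cells had a median of 1042 and 1232 detected genes, against 2878.5 and 3001 at P1, and epithelial markers summed to 25.9 and 1030 CPM in them. The median log2 change of all genes in this comparison was 1.36, and 966 of 15670 genes (6.16%) were called, 956 of them higher. The single member called by edgeR was Slc2a1, with 0 reads at E18.5 and 17.4 and 14.1 CPM at P1 (adjusted p = 0.0316). By pooled reads the limit is 86.0-fold higher, which covers counting error only and leaves out the spread between cells. Hif1a in the same cells was 115 and 3.81 CPM at E18.5, so the 2 mice did not resemble each other. Without these cells at E18.5, edgeR called the same number of members in all cells (2) and in the fibroblast lineage (0). The part of the low gene number and of the epithelial RNA in the Slc2a1 result was not tested.

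Later, Adm and Slc2a1 both rose in the fibroblast lineage between P7 and P21. The P1 mice had 46.2 and 39.7 CPM of Adm, the P7 mice 81.0 and 114, and the P21 mice 363 and 409. For Slc2a1 the same mice gave 12.5 and 13.4 CPM, then 4.96 and 3.99, and finally 32.8 and 25.0. From P1 to P7 edgeR called 0 of 16748 genes (0%), with 4 members at an unadjusted p under 0.05 (7.53% of all genes) and 4 called by DESeq2 (3% of all genes). From P7 to P21 Adm rose by 1.99 ± 0.30 (log2, SE, adjusted p = 0.00676) and Slc2a1 by 2.69 ± 0.43 (adjusted p = 0.00954), beside 416 of 16748 genes (2.48%) that rose. The P7 and P21 males shared a run, and within them the log2 ratio of (CPM + 1) was 1.84 for Adm and 2.38 for Slc2a1, against 2.15 and 2.50 in the females, whose runs differed. The call of Adm was lost when the normal-air P7 female was left out (adjusted p = 0.0615), and that of Slc2a1 when the male was (adjusted p = 0.0934).

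Epas1 was followed in pericytes over the same time. After TMM scaling, P1 pericytes had 316 and 243 CPM, P7 pericytes 650.5 and 432, and P21 pericytes 777 and 737. The P7 mice were both above the P1 mice, as for 17% of all genes tested. The P21 mice were both above the P7 mice, as for 24.4%. Within the males, which shared a run, the log2 ratio of (CPM + 1) was 0.83 for the first step and 0.77 for the next, and in the females 1.04 and 0.26. EdgeR called 0 of 11894 genes (0%) from P1 to P7 and 6 (0.0504%) from P7 to P21, and no member in either, with 2 members at an unadjusted p under 0.05 in each step (3.99% and 4.66% of all genes). Epas1 had an unadjusted p of 0.0797 in the first of these steps and 0.318 in the other, and DESeq2 called 2 members in each (4.02% and 3.74% of all genes), neither of them Epas1. In all cells Epas1 was 32.9 and 42.2 CPM at P7 and 154 and 243 at P21, where the summed pericyte markers were also higher (1050 to 1830 CPM, against 352 to 510 at P7).

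**Figure D4:**
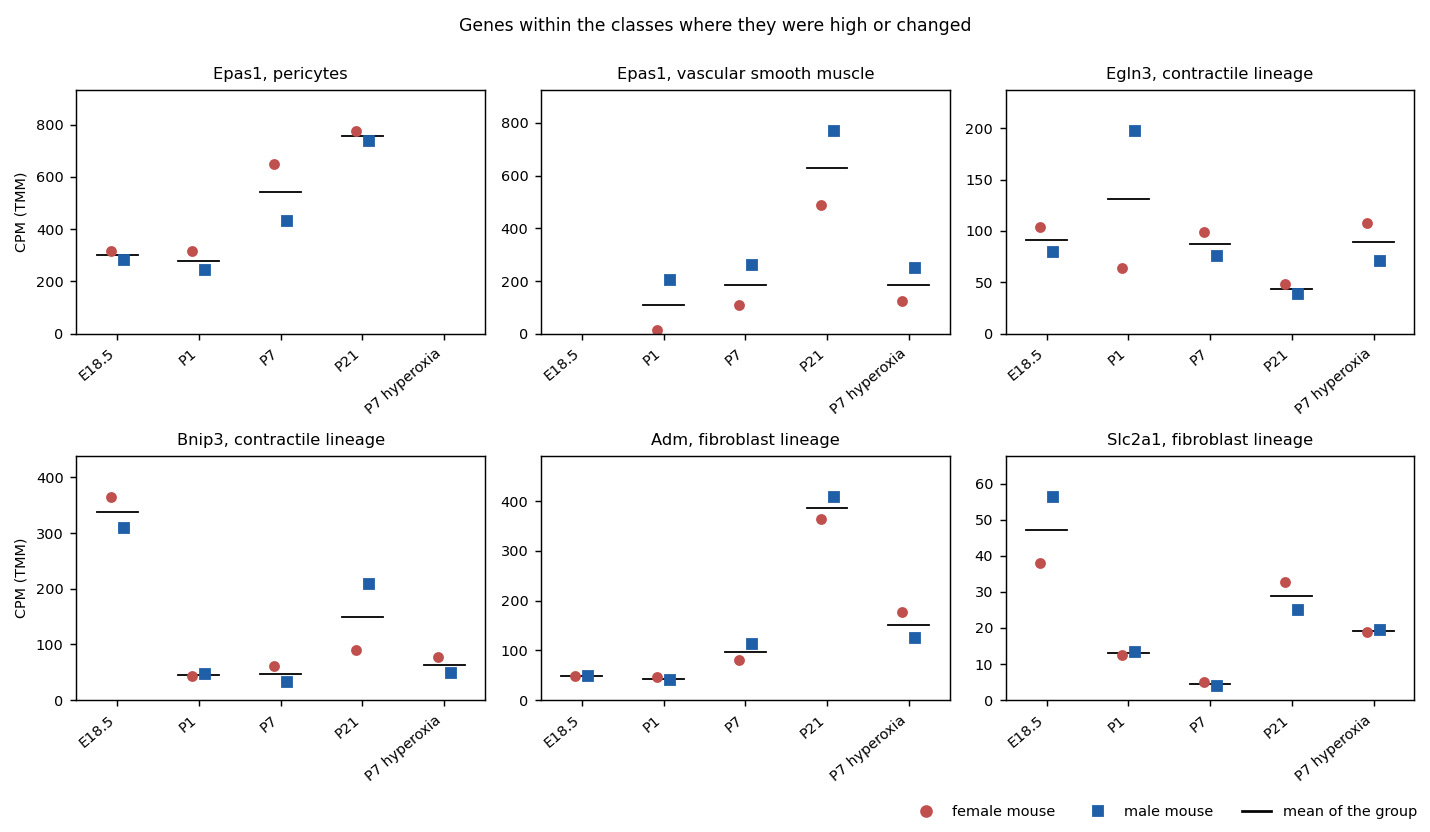
Levels (CPM after TMM scaling, linear axes from 0) of Epas1, Egln3, Bnip3, Adm and Slc2a1 in single cell classes of each mouse. Circles are female and squares male mice, and lines are means of 2 mice. Classes with under 10 cells in a mouse are left out, such as pericytes under hyperoxia. Bnip3 in contractile cells was above 300 only at E18.5, and Adm and Slc2a1 in fibroblasts were higher at P21 than at P7.

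Hyperoxia was compared with normal air at P7. In all cells no member was called by edgeR, which called 42 of 17283 genes (0.243%), 40 of them higher. At an unadjusted p under 0.05 there were 3 members (Adm, Egln1 and Slc2a1) and 12.3% of all genes. DESeq2 called 2, Adm and Egln1, among 800 genes (4.63%), and limma with equal weight for each cell called Adm among 149 genes (0.862%). The members' median log2 change was -0.09, against 0.00 for all genes tested.

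Adm was 42.1 and 49.0 CPM in the P7 mice in normal air and 132.5 and 104 CPM after hyperoxia. The groups did not overlap, as in 24.2% of all genes tested in that direction. The log2 difference was 1.37 ± 0.24 (SE) with an adjusted p of 0.0624 in edgeR. This p ranged from 0.0284 to 0.431 when 1 mouse was left out and was under 0.05 only without either P21 mouse. After thinning, 7.94% and 8.04% of cells had an Adm read in normal air and 26.1% and 31.6% after hyperoxia. Such shares were also higher for Hif1a, whose level was lower in each sex, so no order was read from them. In myofibroblasts Adm was 16.3 and 21.75 CPM against 59.7 and 63.4, a log2 difference of 1.79 ± 1.70 (SE, adjusted p = 0.934 in edgeR). Adventitial fibroblasts had 86.0 and 77.65 CPM against 98.5 and 154 (adjusted p = 0.68). In alveolar fibroblasts the groups overlapped, with 78.2 and 128 CPM in normal air and 214 and 109 after hyperoxia. They also overlapped in airway smooth muscle (6.21 and 12.9 CPM against 40.95 and 9.89) and vascular smooth muscle (23.7 and 0.04 against 5.04 and 4.02).

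Slc2a1 was 11.1 and 5.61 CPM in normal air and 18.4 and 20.5 after hyperoxia, a log2 difference of 1.25 ± 0.40 (SE, adjusted p = 0.261). The share of cells with a read after thinning was 3.89% and 3.29% against 11.4% and 16.1%, from which again no order was read. Alveolar fibroblasts had 4.70 and 1.68 CPM of Slc2a1 in normal air against 26.7 and 20.7, and myofibroblasts 7.59 and 5.41 against 26.1 and 29.1. In both classes the groups were apart, as were those of 22.9% and 23.1% of all genes tested in that direction. Neither passed (adjusted p = 1 and 0.775). Vascular smooth muscle had 0 and 3.12 CPM against 11.0 and 13.1. The groups overlapped in adventitial fibroblasts, with 5.62 and 9.37 CPM against 3.02 and 16.6, and in airway smooth muscle, with 10.2 and 15.3 CPM against 9.17 and 28.7, and in each of these classes the female was lower and the male higher. The difference between alveolar fibroblasts and myofibroblasts was tested with an interaction term, which called 0 of 15918 genes (0%). It called no member, and Pdk1 alone had an unadjusted p under 0.05 (0.0476), as did 3.19% of all genes.

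In all cells both hydroxylase genes were lower in level under hyperoxia without passing the test. Egln1 was 43.3 and 38.3 CPM in normal air and 17.8 and 19.2 after hyperoxia, a log2 difference of -1.15 ± 0.35 (SE, adjusted p = 0.236). Its share of positive cells after thinning did not follow, with 19.3% and 16.1% in normal air and 20.6% and 33.2% after hyperoxia, so no order was read from that share. Egln3 was 44.5 and 41.6 CPM against 27.8 and 14.1 (adjusted p = 0.415). Within early airway smooth muscle, its main site, Egln3 was 140 and 162 CPM against 216 and 154, where the groups overlapped. In myofibroblasts it was 82.8 and 51.1 CPM against 27.2 and 43.3. Over the whole contractile lineage it was 75.3 to 98.8 CPM in normal air and 71.25 to 108 after hyperoxia. That lineage held 231 and 248 cells in normal air and 117 and 68 after hyperoxia. In all cells, the mix of cells and the level within them are not told apart.

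None of the HIF subunit genes passed the test. Hif1a was 105 and 75.3 CPM in normal air and 79.85 and 66.5 after hyperoxia (adjusted p = 0.686), while the thinned share of cells with a Hif1a read was 44.4% and 41.9% against 62.7% and 72.6%. Epas1 was 32.9 and 42.2 CPM against 20.3 and 29.85. Hif3a was 3.98 and 0.84 CPM against 2.62 and 2.97, and Bnip3 53.3 and 35.7 against 62.5 and 34.6, and the groups of both overlapped. Median genes detected per cell were 2988 and 2963 in normal air and 4268 and 5545 after hyperoxia, and summed endothelial markers in all cells were 5.78 to 7.29 CPM and 16.4 to 36.9 CPM. Their part in these results was not tested.

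Single classes gave no call under hyperoxia. EdgeR called 0 genes (0%) of 15670 in alveolar fibroblasts, 15289 in adventitial fibroblasts, 13380 in myofibroblasts, 13496 in airway smooth muscle and 12417 in vascular smooth muscle. At an unadjusted p under 0.05 the members were Slc2a1 in alveolar fibroblasts and in myofibroblasts and Hif3a in adventitial fibroblasts. In the order of the classes above, 2.68%, 8.01%, 6.33%, 3.1% and 2.57% of all genes had such a p. DESeq2 called Slc2a1 in alveolar fibroblasts and Hif3a in adventitial fibroblasts and no member in the other classes, where it called 1.54%, 2.53%, 2.81%, 0.963% and 1.73% of all genes in the same order. Hif3a in adventitial fibroblasts was 0.252 and 0.0169 CPM in normal air and 1.94 and 3.46 after hyperoxia, low in all 4 mice. Pericytes were not tested, with 5 and 3 cells in the hyperoxic mice.

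A small run held cells of both conditions from the male P7 mice, 14 in normal air and 9 after hyperoxia. It was the only place where the conditions shared a run. Pooled CPM there was 186 against 57.1 for Adm, 22.7 against 2.69 for Slc2a1, 2.70 against 15.2 for Egln1 and 39.9 against 151 for Epas1. For Adm, Slc2a1, Egln1 and Epas1 this order was the opposite of that in all cells. These reads came from few cells: 4 and 2 cells for Adm, 2 and 2 for Slc2a1, 3 and 3 for Egln1, and 8 and 4 for Epas1. Hif1a (62.9 against 14.8 CPM), Egln3 (9.44 against 0, from 1 cell) and Pdk1 (11.3 against 12.3) had the same order as in all cells. All of these cells came from the CD31 sort of 1 mouse per condition, and no test was made.

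**Figure D5:**
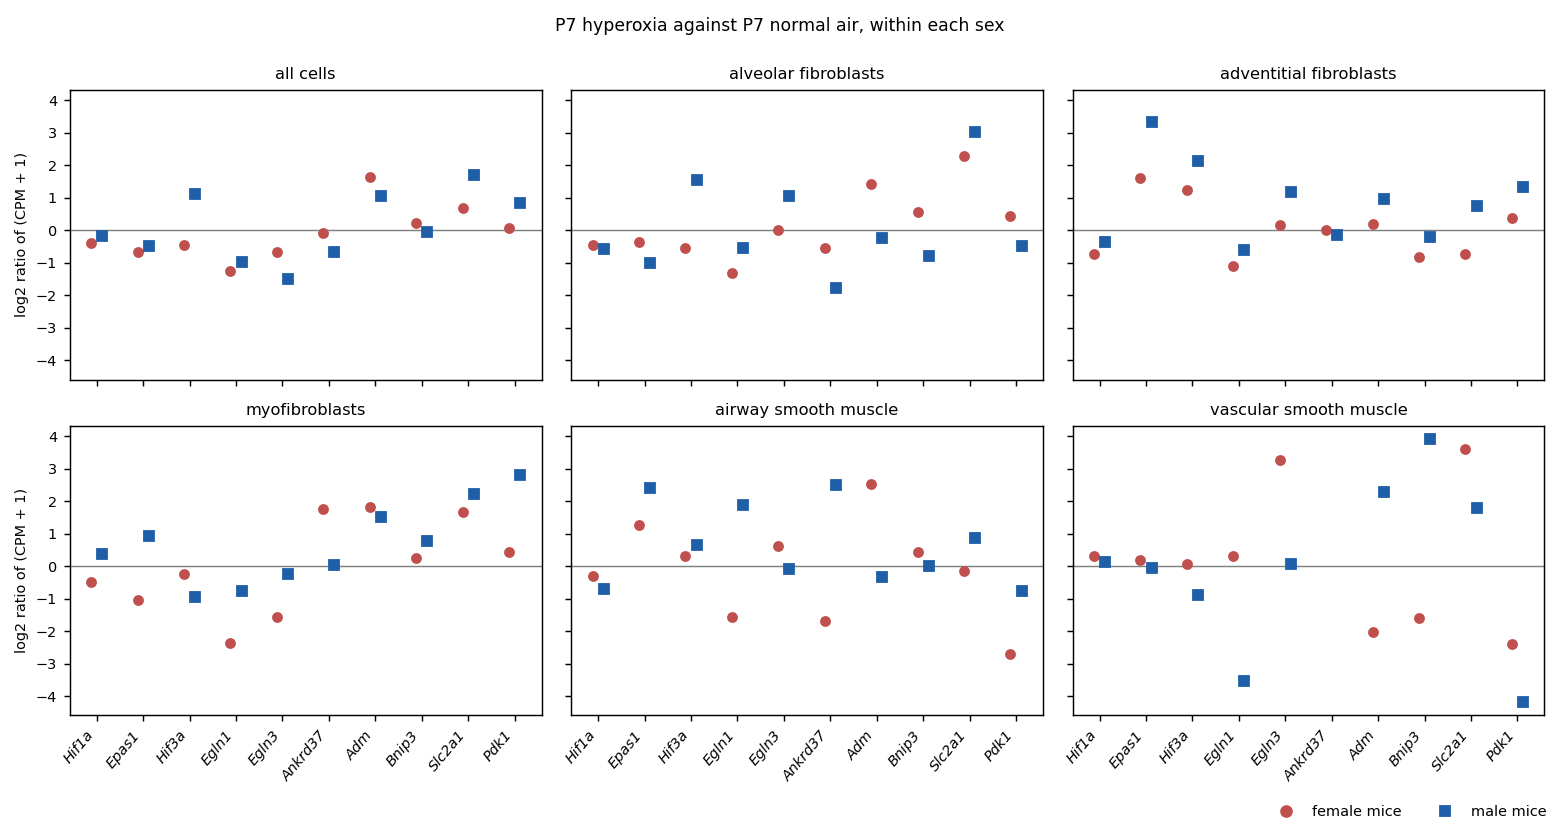
Log2 ratio of (CPM + 1) in hyperoxia against normal air at P7 for each gene within each sex (circles female, squares male), in all cells and in 5 cell classes. A value above 0 is higher after hyperoxia. Adm and Slc2a1 lay above 0 and Egln1 below 0 in both sexes in all cells and in myofibroblasts.

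Other genes of the pathway were read from 3 lists: 12 HIF regulators such as Arnt and Vhl, 18 further targets of glucose use, and 24 further targets outside it. The lists too were chosen with earlier results of these data known. Across birth in all cells 0 of 12 regulators were called. Their estimates were split, 6 positive and 6 negative, with a median log2 change of 0.01. Of the glucose-use targets 1 of 18 fell and none rose. Gys1, the glycogen synthase gene of muscle and most other tissues, was 53.6 and 63.3 CPM at E18.5 and 21.6 and 13.0 at P1 (log2 change -1.79 ± 0.36 SE, adjusted p = 0.0487). In all, 16 of the 18 estimates were negative, as were 8750 of all 17283 genes tested. The median was -0.51, beside -0.01 for all genes tested. Of the other targets 1 of 24 rose and none fell, with a median of -0.07.

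The gene that rose was Angptl4, which encodes an inhibitor of lipoprotein lipase and is also a target of fatty acid receptors. Before birth it was 56.4 and 57.9 CPM and after birth 272 and 225, which is 2.11 ± 0.25 in log2 units (SE, adjusted p = 0.0035). It also rose in the fibroblast lineage (1.78, adjusted p = 0.0162) and in the contractile lineage (3.98, adjusted p = 0.00612), where no other gene of the 3 lists was called in edgeR. Angptl4 thus moved against Hif3a and Bnip3 at birth. In early alveolar fibroblasts Siah2 (1 of 12 regulators), Pfkfb4 (1 of 18) and P4ha2 (1 of 23 tested) were called higher. Each had 0 reads in the cells of both E18.5 mice. Of all genes tested there, 956 of 15670 (6.1%) were called higher, so these calls do not set the lists apart. No list gene was called in adventitial fibroblasts or pericytes.

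From P7 to P21 in the fibroblast lineage, 2 of 18 glucose-use targets and 4 of 24 other targets rose, while 2 of 12 regulators and 1 of the other targets fell. Of all genes tested there, 2.48% rose and 1.68% fell. The rises were led by Pfkp (log2 4.64, adjusted p = 0.00932) and Hk2 (2.30, adjusted p = 0.033), enzymes of the early steps of glycolysis, and Bhlhe40 (3.32, adjusted p = 0.00292), a transcriptional repressor. Pfkp was 4.88 and 1.00 CPM at P7 and 81.5 and 54.5 at P21. Rora and P4ha1 also rose, and are named after their values were seen. The genes that fell were Limd1 (-1.38, adjusted p = 0.0193) and Rbx1 (-1.36, adjusted p = 0.048), parts of the machinery that degrades HIF subunits, and the target Fam162a (-1.31, adjusted p = 0.0398). Under hyperoxia in all cells no list gene was called. Of the 18 glucose-use estimates 15 were positive, with a median of 0.15. Of all 17283 genes tested 8668 were positive, with a median of 0.002. The direction of the list as a set was not tested.

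The genes whose levels ran most like each member were named over the 64 libraries of a subtype in a mouse with at least 10 cells, by Pearson correlation of log2(CPM + 1). The libraries share mice, subtypes and depth, so the coefficients are descriptions. Epas1 ran most like Pcdh1 (0.83), Adap2 (0.82) and Gja4 (0.82), and Egln3 most like Met (0.79). Ankrd37 and Hif3a shared a neighbour: Ankrd37 ran most like Col25a1 (0.68), then Hif3a (0.66) and Igf2bp1 (0.63), and Hif3a most like Igf2bp1 (0.60). Bnip3 ran most like Fam213a (0.76), Slc2a1 like Rgl2 (0.78), Adm like Sned1 (0.69), Hif1a like Lonp1 (0.64), Egln1 like Tbc1d7 (0.59) and Pdk1 like Tmem119 (0.59).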

How the data were processed

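The deposited table holds whole-number read counts per gene and cell, with the authors' subtype, sort and run labels for each cell. Per the submitters' processing notes, STAR 2.5.2b, HTSeq 0.10 and the build GRCh38 were used. That build is human while the labels give mouse, so no coordinates were drawn from the counts, and counting by strand is not stated.

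Counts were summed per mouse over all cells, over the lineages and over single classes, keeping classes with at least 10 cells in a mouse. The sums entered edgeR 4.0.16, run in R 4.3.3 (quasi-likelihood test, two-sided, TMM scaling, filterByExpr, group and sex as terms) over all genes that passed the filter, which all 10 members did in every comparison except Ankrd37 in vascular smooth muscle. Samples were matched across groups by sex, which the labels give for each mouse. DESeq2 1.42.0, limma 3.58.1 on log2(mean CPM + 1), other scaling, no filter, no sex term, the mesenchymal sort alone and leaving out each mouse were alternatives. The scripts were tested on simulated data. Shares of cells were also computed after thinning each cell to 100000 reads, which left out 168 cells.

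The 10 members and the lists of further pathway genes were chosen with earlier results of these data known. All members were named, together with list genes past the threshold, up to 3 in each direction per comparison, and the 3 genes that ran most like each member. The values of 1 list gene are not reported here. Promoter sequences are from RefSeq and matched 9 of 10 members. Depth ran from 39358 to 5177020 reads per cell, with a median of 774305.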

Additional observations from a re-analysis of the deposited data

Results flagged for a closer look

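Some members moved in opposite directions across birth in different cell classes, in both the female and the male mouse. The differences between these classes were not tested, and values are log2 ratios of (CPM + 1) at P1 against E18.5 within the female, then the male mice. Egln1 was higher after birth in the contractile lineage (1.15 and 1.11) and in alveolar fibroblasts (2.14 and 4.29), and lower in pericytes (-3.60 and -2.84). In alveolar fibroblasts the E18.5 level rests on 17 reads, the median log2 change of all genes was 1.36 and 956 of 15670 genes were called higher. In pericytes its levels were 27.0 and 98.7 CPM before and 1.30 and 12.9 CPM after birth.

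Slc2a1 was higher after birth in alveolar fibroblasts (4.20 and 3.92), where it had no read at E18.5, so these ratios are set by the added 1. It was lower in the fibroblast lineage as a whole (-1.52 and -1.99), in adventitial fibroblasts (-3.34 and -2.97) and in pericytes (-6.22 and -1.87). The alveolar fibroblasts of E18.5 numbered 14 and 24 cells with a median of 1042 and 1232 detected genes, and the same general shift applies to Slc2a1 there.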

How the results depend on the processing

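Counts of members called changed with the tool and with single mice. Under DESeq2 they were 5 across birth in all cells (2 in edgeR), 4 in the fibroblast lineage (0), 4 in the contractile lineage (1), 3 in alveolar (1) and 3 in adventitial fibroblasts (0) and 5 in pericytes (0). Under hyperoxia DESeq2 called 2 in all cells, 1 in alveolar and 1 in adventitial fibroblasts (0 in edgeR). From P1 to P7 it called 4 in the fibroblast lineage and 2 in pericytes (0 in edgeR), and from P7 to P21 4 (2 in edgeR) and 2 (0). Over all genes it called 1167 against 213 across birth and 800 against 42 under hyperoxia in all cells, and across birth 6.63% of genes in the contractile lineage and 23.2% in alveolar fibroblasts, and 17.9% from P7 to P21 in the fibroblast lineage. With each cell weighing the same, limma called 2, 3 and 2 members across birth in the fibroblast lineage, the contractile lineage and alveolar fibroblasts, where it called 0.937%, 1.51% and 15.2% of all genes, and 1 under hyperoxia in all cells (0.862%). Without the replicate block (no sex term) 1 member was called in the fibroblast lineage and 2 in the contractile lineage across birth (1.27% and 1.03% of all genes), and 1, Adm (adjusted p = 0.0464), under hyperoxia (0.243%). The cause was not tested.

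Leaving out each mouse in turn gave 0 to 3 members across birth in all cells, 0 to 1 in the fibroblast lineage, 0 to 2 in the contractile lineage and 0 to 3 in alveolar fibroblasts. The highest of these came with 2.57% and 2.45% of all genes in all cells and 1.9% and 1.92% in the contractile lineage (without the P21 female or male), 0.702% to 1.29% in the fibroblast lineage, and 29.3% in alveolar fibroblasts (without the E18.5 female). It gave 0 to 1 under hyperoxia in all cells, 0 to 1 from P1 to P7 and 1 to 3 from P7 to P21 in the fibroblast lineage, the 3 with 7.63% of all genes. A lone mouse left in a group was assumed to vary like the others. No value that was called changed sign, in any of 2656 refitted values of which 112 changed sign. Among the all-cells values, Egln1 across birth turned to -0.38 under limma and Adm to 0.026 in the mesenchymal sort alone. Without 1 mouse, Epas1 across birth ranged from -0.001 to 0.70, and under hyperoxia Hif3a from -0.25 to 1.53 and Bnip3 from -0.32 to 0.46 (log2). Leaving out the early alveolar fibroblasts at E18.5, or a subtype of hyperoxic fibroblasts found in the male, was chosen after seeing the data and changed no count of members in all cells. RLE factors moved the all-gene median across birth in alveolar fibroblasts from 1.36 to 1.14.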
